A study of Mus musculus with 6 samples.

Results

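The products of Cblb and its partners form a small circuit of ubiquitin ligases, adaptors and substrates, and the transcripts of 10 such genes were measured in irradiated mouse skin lacking Cbl-b. The genes were Cblb, its paralogs Cbl and Cblc, the adaptors Sh3kbp1, Cd2ap, Grb2 and Crkl, the ligases Itch and Nedd4, and the phosphoinositide 3-kinase (PI3K) subunit Pik3r1. They were picked by name for their place in this circuit, and each had exactly 1 row carrying only its symbol, so the 10 genes are 10 of the 35556 rows and 10 of the 21789 rows with a single symbol. Skin of Cbl-b-/- mice (genotype spelled clb-b -/- in the labels), in which the Cblb gene is inactivated, was compared with skin of wild-type (WT) mice, with 3 biological replicates each. The mice were BL6 animals matched for sex and age (the ages are not given in the sources used here), shaved on the back the day before and exposed to 1 dose of 80 mJ/cm2 UVB. Dorsal skin was taken 24 h later, and its RNA was profiled on Affymetrix whole-transcript arrays (Mouse Gene 1.0 ST), 1 per replicate. The study's figure legend for these arrays gives 3 mice per group. Nonirradiated skin was not analysed here, so every difference below is between genotypes after UVB, not a change with UVB. The design of the inactivated allele is not given in the sources used here.

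Cbl proteins are RING-type E3 ubiquitin ligases. Through an amino-terminal domain that binds phosphotyrosine they dock on activated receptors and kinases, and through the RING finger they bring in an E2 enzyme that attaches ubiquitin, after which the target is internalized, degraded or kept from signaling. In T cells, Cbl-b holds back activation when the antigen receptor is engaged without costimulation through CD28, and it acts in part on the regulatory subunit of PI3K. In skin, receptors such as the EGF receptor of keratinocytes are targets of the family.

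Values are log2 signals after robust multichip averaging (RMA), 1 value per array and gene, and differences are Cbl-b-/- minus WT on that log2 scale. A difference was called when the unadjusted p of limma was under 0.05 and the fold difference at least 1.5, the thresholds of the study. Levels are compared only within a gene, since the signal of a row also depends on its probes. Precision is limited by having 3 arrays per genotype, and for a single gene an exact two-sided permutation test cannot give a p below 0.10.

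Cblb was clearly lower in Cbl-b-/- skin. The 3 Cbl-b-/- arrays read 8.61, 8.69 and 8.61, against 9.90, 9.66 and 9.72 in the 3 WT arrays. All 3 Cbl-b-/- values lay below all 3 WT values, and the gap between the groups was wider than the range within either. The WT level was 2.18-fold the Cbl-b-/- level (95% confidence interval 1.87 to 2.54), with an adjusted p of 0.0782 from limma and an exact two-sided permutation p of 0.10. Of all 35556 rows, Cblb had the fourth smallest p. Leaving out each array in turn moved its log2 difference between -1.17 and -1.05, and it was called every time. The row pools probes along the transcript, and which of them fall in the inactivated part is not given in the sources used here, so the values check the genotype labels but do not measure a functional transcript. Because whole skin was profiled, fewer cells that express a gene and less RNA per cell cannot be told apart.

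Cblb was the only one of the 10 genes called. As background, 0.945% of all rows were called lower and 0.276% higher in Cbl-b-/- skin. At an unadjusted p under 0.05 without a fold requirement Cblb was again the only one, where 2.87% of all rows were lower and 3.68% higher. At an adjusted p under 0.05 none of the 10 passed in limma, as against 0.00281% of all rows. In the methods' own test, 2 of the 10 had an unadjusted p under 0.05 (Cblb and Grb2), where 6.98% of all rows did. In that test 0 of the 10 passed an adjusted p. Of the 10 genes, 5 had a log2 difference above 0 and 5 below. The median size of the difference, whatever its sign, was 0.098 over the 9 genes other than Cblb and 0.10 over all rows.

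**Figure D1:**
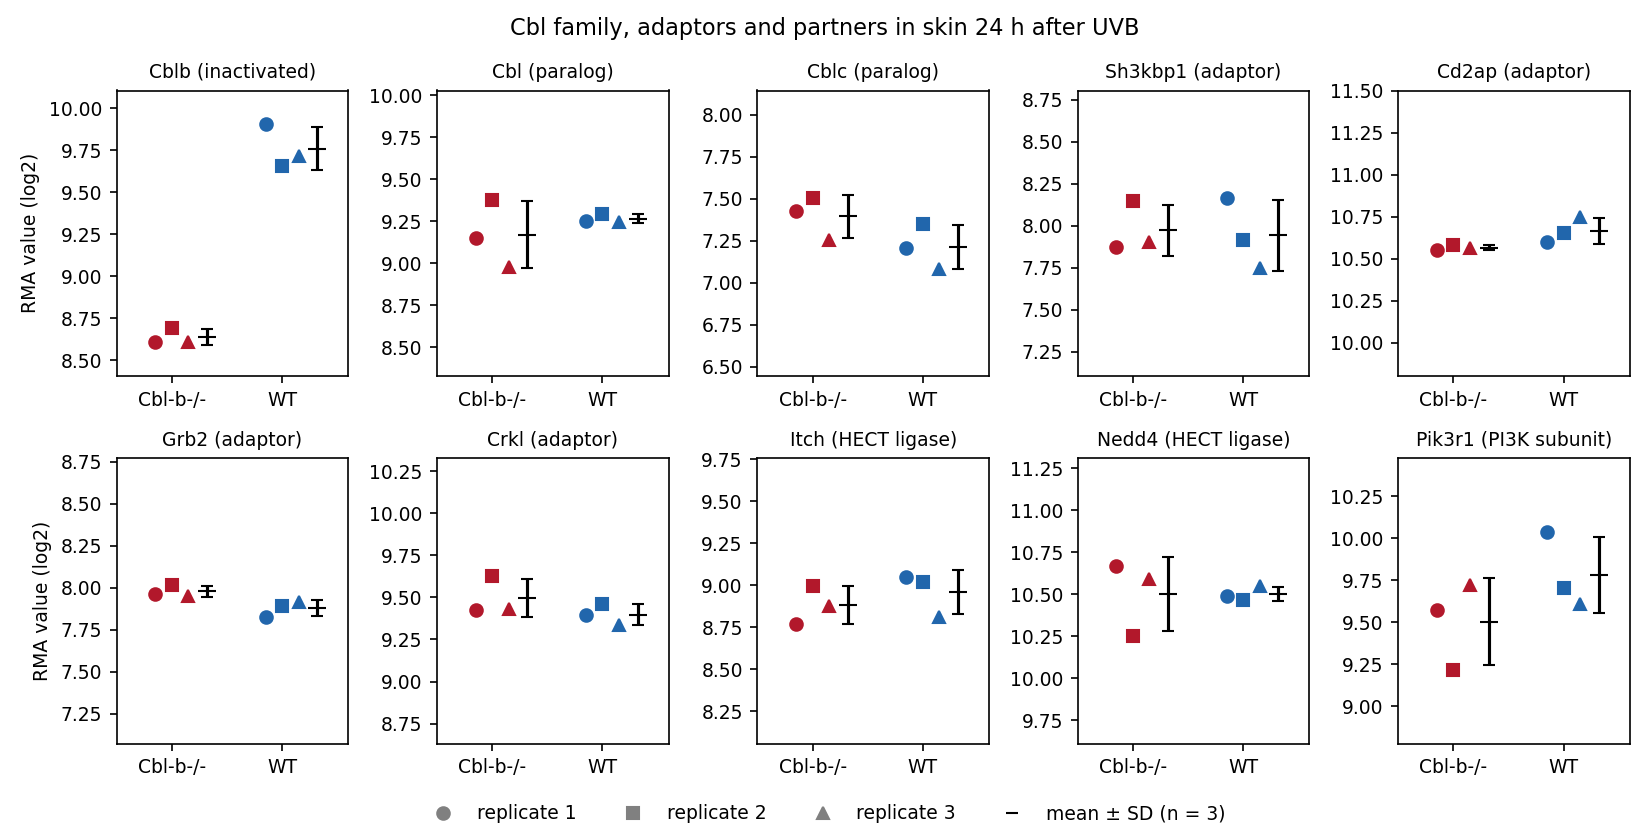
RMA value (vertical axis, log2 scale, all panels of equal height, each around its own centre) of the 10 genes in Cbl-b-/- (left, red) and WT (right, blue) skin 24 h after UVB. Symbols mark the replicate number of each array, and black bars are the mean and SD of 3 arrays. Only Cblb shows a wide gap between genotypes, near 8.64 in Cbl-b-/- and 9.76 in WT skin.

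The sequences before the annotated starts of Cblb, the inactivated gene, and its paralog Cbl are shown for description. Their part in the levels of either gene was not tested. RefSeq promoter windows (build GRCm38.p6) were found for 8 of the 10 genes. Cblc and Itch had no entry. Each window is cut here to the 250 bases before the start, 5′ to 3′ on the gene's strand. That of Cblb lies at chr16:52031299-52031548 on the plus strand and that of Cbl at chr9:44234047-44234296 on the minus strand. Capitals mark the CCAAT box (letters CCAAT) and the GC box (letters GGGCGG), searched on both strands.
Cblb: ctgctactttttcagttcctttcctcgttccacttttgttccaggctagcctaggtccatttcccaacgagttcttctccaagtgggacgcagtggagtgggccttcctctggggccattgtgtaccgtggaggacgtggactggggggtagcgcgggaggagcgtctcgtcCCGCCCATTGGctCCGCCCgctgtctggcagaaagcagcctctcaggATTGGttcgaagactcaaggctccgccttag
Cbl: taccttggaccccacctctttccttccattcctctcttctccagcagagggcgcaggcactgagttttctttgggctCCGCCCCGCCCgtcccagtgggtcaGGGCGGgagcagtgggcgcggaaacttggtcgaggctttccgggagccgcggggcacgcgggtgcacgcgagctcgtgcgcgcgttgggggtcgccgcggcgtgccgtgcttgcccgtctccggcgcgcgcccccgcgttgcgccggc
The Cblb window held 2 CCAAT boxes and 2 GC boxes, 1 CCAAT box directly following a GC box. The Cbl window held 3 GC boxes, a pair of them overlapping by 1 base, and no CCAAT box. Among 32851 windows of the same length, 33.8% held a CCAAT box and 32.7% a GC box. Both windows were richer in CpG than the median window, with 14 CpG dinucleotides for Cblb and 33 for Cbl against a median of 6. These matches describe the letters only.

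The paralogs were not called. Cbl, the widely expressed founding member of the family, read 9.15, 9.38 and 8.98 in Cbl-b-/- and 9.25, 9.29 and 9.24 in WT skin. The WT arrays lay close together, and the Cbl-b-/- arrays spread to both sides of them. Its log2 difference was -0.096 (standard error 0.11, 95% confidence interval -0.37 to 0.18). Cblc, a shorter family member found mainly in epithelia, read 7.42, 7.50 and 7.25 in Cbl-b-/- and 7.21, 7.35 and 7.08 in WT skin. The groups overlapped, since WT replicate 2 lay above Cbl-b-/- replicate 3. Its log2 difference was 0.18 (standard error 0.11, interval -0.077 to 0.44, adjusted p = 0.779 from limma). For both paralogs the interval left out a difference of 1.5-fold in either direction.

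The paralogs were also set against Cblb within each array, which removes whatever shifts both rows of an array alike. Only the change between genotypes can be read from such a difference. Cblb minus Cbl was -0.54, -0.68 and -0.37 in the Cbl-b-/- arrays and 0.65, 0.36 and 0.47 in the WT arrays, a shift of -1.03. Cblb minus Cblc shifted by -1.31, with 1.18 to 1.36 in Cbl-b-/- and 2.31 to 2.70 in WT arrays. Cbl minus Cblc was 1.73, 1.87 and 1.73 in Cbl-b-/- and 2.05, 1.95 and 2.16 in WT arrays, a shift of -0.28 without overlap, although neither gene was called alone. All 3 pairs reached the smallest p that 3 arrays against 3 allow, an exact two-sided permutation p of 0.10 (0.10 also after adjustment over the 3 pairs). The pairs with Cblb had to separate, since the gap of Cblb between genotypes is wider than the whole range of either paralog. Cbl minus Cblc follows from the other pairs, so the 3 are not separate results. How often pairs of rows separate in this way was not determined.

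None of the 4 adaptor genes was called. Sh3kbp1 encodes CIN85, which binds Cbl proteins through its SH3 domains and links them to the endocytic machinery. It read 7.87, 8.15 and 7.90 in Cbl-b-/- and 8.16, 7.92 and 7.75 in WT skin, so that the ranges nearly coincided (log2 difference 0.031, interval -0.29 to 0.36). The sign of that difference turned without Cbl-b-/- replicate 2 or WT replicate 3. Cd2ap, the CIN85 relative first described at the contact between T cells and their partners, read 10.55, 10.59 and 10.56 in Cbl-b-/- and 10.60, 10.65 and 10.75 in WT skin. Every Cbl-b-/- array lay below every WT array, but the nearest pair were almost level, and the log2 difference was -0.10 (standard error 0.077, adjusted p = 0.814 from limma). Such a separation downward was shown by 4.89% of all rows.

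Grb2, whose SH3 domains bind the proline-rich part of Cbl proteins and whose SH2 domain binds activated receptors, read 7.96, 8.02 and 7.95 in Cbl-b-/- and 7.83, 7.89 and 7.92 in WT skin. Every Cbl-b-/- array lay above every WT array, a separation upward that 8.66% of all rows showed. Its log2 difference was 0.099 (standard error 0.073, adjusted p = 0.805 from limma), or 1.07-fold (interval 0.949 to 1.21). In the methods' test per row, the unadjusted p of Grb2 was 0.041, still far below the fold threshold. After cyclic loess between arrays Grb2 no longer separated the genotypes. Crkl, an SH2 and SH3 adaptor that binds phosphorylated Cbl proteins, read 9.43, 9.63 and 9.43 in Cbl-b-/- and 9.40, 9.46 and 9.33 in WT skin. The groups overlapped, and the log2 difference was 0.098 (interval -0.12 to 0.31).

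The HECT-type ligases were not called either. Itch, which loads ubiquitin on its own catalytic cysteine and works with Cbl-b on the T cell receptor complex, read 8.77, 9.00 and 8.88 in Cbl-b-/- and 9.05, 9.02 and 8.81 in WT skin. WT replicate 3 fell inside the Cbl-b-/- range, and the log2 difference was -0.078 (interval -0.33 to 0.17). Without that array the genotypes did not overlap (10.7% of all rows then separated downward), and the difference was -0.15. Nedd4, a relative of Itch that marks Cbl-b for degradation in T cells, read 10.67, 10.25 and 10.59 in Cbl-b-/- and 10.49, 10.47 and 10.55 in WT skin. The WT arrays sat within the range of the Cbl-b-/- arrays. The means were 10.50 ± 0.22 and 10.50 ± 0.041 (SD, n = 3 each), and the interval of the log2 difference ran from -0.29 to 0.30.

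Pik3r1 had the largest difference after Cblb and the least certain one. It encodes the p85α subunit of PI3K, to which Cbl-b attaches ubiquitin in T cells. The arrays read 9.57, 9.22 and 9.72 in Cbl-b-/- and 10.04, 9.70 and 9.61 in WT skin, and Cbl-b-/- replicate 3 lay above WT replicates 2 and 3. The log2 difference was -0.28 (standard error 0.17, interval -0.68 to 0.13, adjusted p = 0.78 from limma). Of the 9 genes other than Cblb, it was the only one whose interval reached a 1.5-fold difference, here a lower level in Cbl-b-/- skin, and for the other 8 the interval excluded it in both directions. These intervals are not adjusted for the number of genes. Without Cbl-b-/- replicate 2, the lowest array, the difference was -0.14, and without WT replicate 1, the highest, it was -0.15. In Cbl-b-/- replicate 2 the mean level of 6 adipocyte markers was 7.59, against 9.32 to 9.44 in the other Cbl-b-/- arrays. That of 12 skeletal muscle markers was 9.36, against 10.42 to 10.59. WT replicates 1, 2 and 3 had 9.00, 8.66 and 8.23 in the adipocyte markers and 10.75, 10.53 and 9.89 in the muscle markers. The part of either marker list in the Pik3r1 values was not tested.

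**Figure D2:**
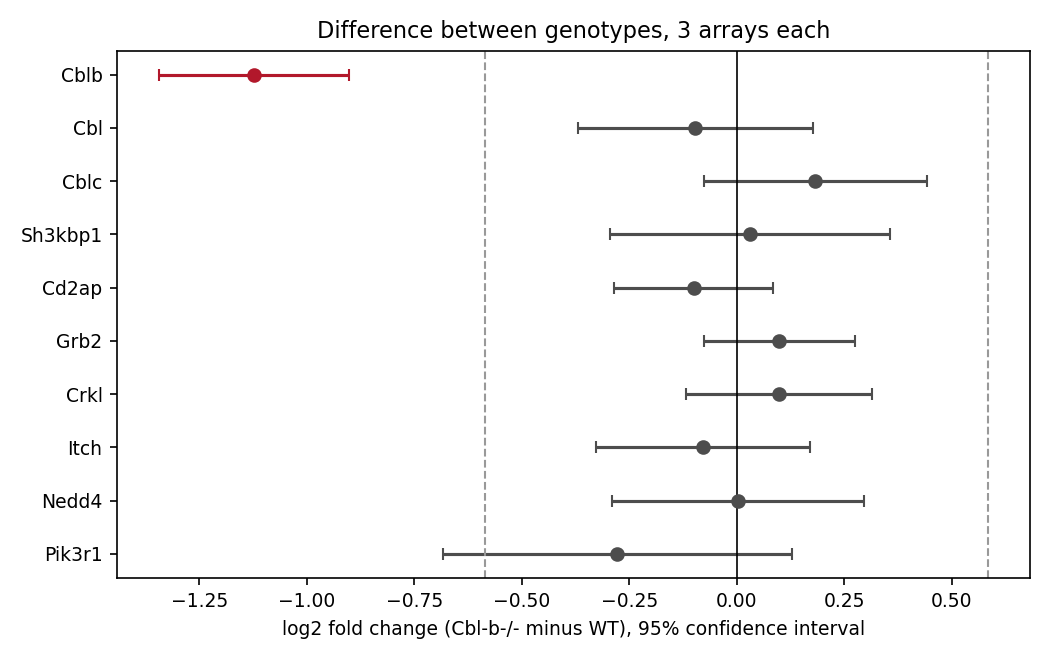
Log2 fold change (horizontal axis, value in Cbl-b-/- skin less that in WT skin) of the 10 genes (vertical axis), with 95% confidence intervals from limma as whiskers. Dashed lines mark a 1.5-fold difference either way. Cblb (red) lies beyond the left line at -1.12, the interval of Pik3r1 crosses that line, and the intervals of the other 8 genes stay between the lines.

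Within the Cbl-b-/- group, replicate 2 was often the array at the end of the range, a pattern seen in the values and described here only. WT replicate 3 held a similar place among the WT arrays. It was the lowest for Cbl, Cblc, Sh3kbp1, Itch, Crkl and Pik3r1 and the highest for Cd2ap, Nedd4 and Grb2. Of the 10 genes, 8 had their highest Cbl-b-/- value in replicate 2 (Cblb, Cbl, Cblc, Sh3kbp1, Cd2ap, Itch, Grb2 and Crkl), and the other two, Nedd4 and Pik3r1, had their lowest there. For Cblb, Cd2ap and Grb2 the 3 Cbl-b-/- arrays differed by less than 0.1. Over all rows, 34.3% had their highest Cbl-b-/- value in Cbl-b-/- replicate 2, and the share with either end there was not determined. The same array had the low adipocyte and muscle levels above. Its mean over 8 myeloid markers was 9.48, against 8.92 and 8.96 in the other Cbl-b-/- arrays and 9.56, 9.07 and 8.91 in the WT arrays, so that WT replicate 1 was higher still. Whether these values bear on each other was not tested. Without this array Cblb was still called (log2 difference -1.15), and none of the other 9 genes was.

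The wider circle of Cbl partners was measured in 6 lists, drawn up by role from general knowledge with earlier results of these data known. Of their 96 genes, 86 had a row of their own, and none was called. At an unadjusted p under 0.05 from limma 5 were higher and 2 lower, or 8.14% of 86, where 6.55% of all rows passed (3.68% higher and 2.87% lower). The median log2 difference was 0.040 over the 86 genes and 0.020 over all rows, and the values ran from -0.46 for Sla to 0.48 for Gab2. Of the 86, 10 separated the genotypes with all Cbl-b-/- arrays above the WT arrays (8.66% of all rows) and 6 with all of them below (4.89% of all rows).

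Among 25 other adaptors that bind Cbl proteins, 3 had an unadjusted p under 0.05, all higher (over all rows 3.68% were higher at that p), and the median log2 difference was 0.046. Gab2, a docking protein that recruits the p85 subunit and the phosphatase Shp2, read 8.84, 8.92 and 8.92 in Cbl-b-/- and 8.66, 8.33 and 8.25 in WT skin. The groups did not overlap (8.66% of all rows separated upward), and the WT arrays were the more spread. Its log2 difference was 0.48 (standard error 0.12, adjusted p = 0.685 from limma), and without WT replicate 1 it was 0.60 and met the study's thresholds. The other two are named because their number is small and were picked after their values were seen. Spry2, a feedback inhibitor of receptor tyrosine kinase signaling that binds Cbl through a phosphotyrosine, had a log2 difference of 0.31 (standard error 0.084). That of Grap, a Grb2-like adaptor of lymphocytes, was 0.30 (standard error 0.11). The unadjusted p of Grap was 0.052 in the methods' test, and in limma 0.066 after cyclic loess and 0.072 with the replicate block. In limma with median centring, the intensity trend or array weights it stayed under 0.05. Sla, an adaptor that brings Cbl to the T cell receptor, had the lowest value of the list at -0.46 (standard error 0.27). It read 7.20, 7.86 and 7.19 in Cbl-b-/- and 8.36, 7.75 and 7.52 in WT skin, highest within each genotype in the array that was also highest in the myeloid markers, Cbl-b-/- replicate 2 and WT replicate 1. The part of those markers in its values was not tested. Without Cbl-b-/- replicate 2 its value was -0.68 and met the thresholds.

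Of 27 receptors and kinases that Cbl proteins ubiquitinate, 1 was higher and 1 lower at an unadjusted p under 0.05 (over all rows 3.68% and 2.87%), and the median log2 difference was 0.027. Fgfr1, a fibroblast growth factor receptor, read 9.58, 9.58 and 9.73 in Cbl-b-/- and 9.34, 9.45 and 9.33 in WT skin, all Cbl-b-/- arrays being the higher ones. Its log2 difference was 0.26 (standard error 0.084, adjusted p = 0.743 from limma). Over all rows, 8.66% separated upward. Ret, a receptor of the glial cell line-derived factors, averaged 6.53 ± 0.14 in Cbl-b-/- and 6.92 ± 0.23 in WT skin (SD, n = 3 each). It overlapped between genotypes and was also picked after its value was seen. The unadjusted p of Ret was 0.027 from limma and 0.062 in the methods' test. Egfr, the best-studied target of the family, was lower in every Cbl-b-/- array (9.69 to 10.16, against 10.19 to 10.31 in WT). The nearest arrays were almost level, and the interval of the log2 difference ran from -0.60 to 0.056. Over all rows, 4.89% separated downward. Pdgfra, a marker of fibroblasts, stood at -0.40 (standard error 0.27) and met the thresholds without Cbl-b-/- replicate 2, at -0.69. The mean level of 7 fibroblast markers, Pdgfra among them, was 10.41 to 10.46 in Cbl-b-/- and 10.56 to 10.80 in WT arrays, and its part in the Pdgfra value was not tested.

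The remaining lists held few small p-values. Among 9 relatives and activators of Nedd4, Nedd4l, a ligase known for removing the epithelial sodium channel, read 7.91, 7.91 and 7.84 in Cbl-b-/- and 8.03, 8.37 and 8.10 in WT skin, lower without overlap (log2 difference -0.28, standard error 0.11, adjusted p = 0.749 from limma). Among 6 other ubiquitin-pathway genes of T cell tolerance, most of them RING-type ligases, the smallest p belonged to Dtx1, a Notch-related ligase. Dtx1 read 6.30, 6.18 and 6.41 in Cbl-b-/- and 5.97, 5.95 and 6.06 in WT skin (log2 difference 0.31, standard error 0.090, adjusted p = 0.716 from limma). Of these 6, 3 had all Cbl-b-/- arrays above the WT arrays (Dtx1, Rnf128 and Rc3h1, the last pair named after their values were seen), where 8.66% of all rows did, and the list's mean level was 7.81 to 7.84 in Cbl-b-/- and 7.70 to 7.76 in WT arrays. The mean of 9 T cell markers also lay a little higher, at 5.99 to 6.07 in Cbl-b-/- and 5.91 to 5.95 in WT arrays. Of the 9, 7 had a log2 difference above 0, the largest those of Cd3d (0.29), Thy1 (0.27) and Cd28 (0.26). Cd3e (-0.040) and Cd3g (-0.077) were lower. The part of these markers in the values of the 6 genes was not tested.
Among 7 E1 and E2 enzymes, which prime ubiquitin and hand it to the ligases, the smallest p belonged to Ube2g1 (log2 difference 0.11, standard error 0.079). Among 12 genes of the PI3K group it belonged to Pik3c2a, a class II kinase, at -0.14 (standard error 0.077). In both lists no gene had an unadjusted p under 0.05 in limma, and the medians were -0.054 and 0.0070.

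**Figure D3:**
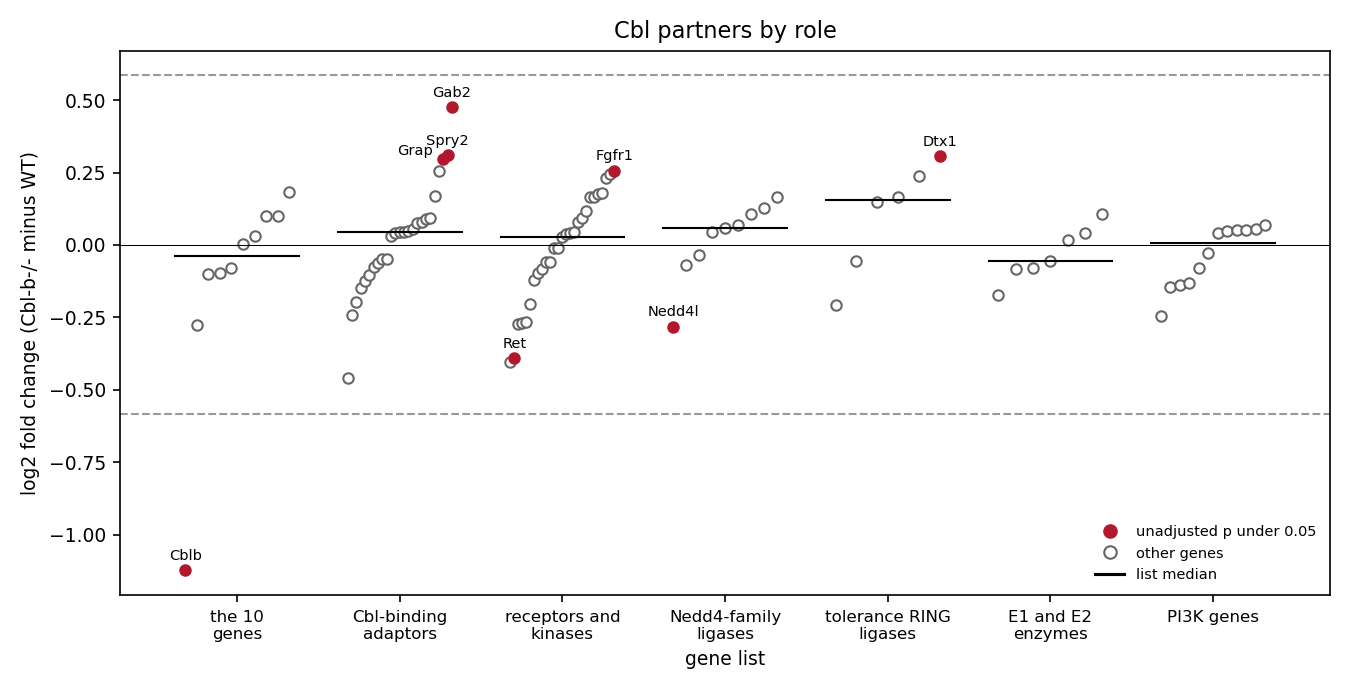
Log2 fold change (vertical axis, value in Cbl-b-/- skin less that in WT skin) of the 10 genes and of 6 lists of Cbl partners (horizontal axis), each point a gene, ordered by value within its list. Filled red points have an unadjusted p under 0.05 in limma, short black lines are list medians, and dashed lines mark a 1.5-fold difference. Cblb alone lies beyond a dashed line. The partners run from -0.46 to 0.48.

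The genes whose profile over the 6 arrays came nearest to that of Cblb were found by the root mean square distance between deviations from each gene's own mean, over 19937 genes. The nearest was Dubr, a long noncoding RNA gene, with 6.62, 6.65 and 6.70 in Cbl-b-/- and 7.68, 7.63 and 7.49 in WT skin, at a distance of 0.12 log2 units. Next came Hmgn5, a nucleosome-binding protein (0.20), and Steap4, a metalloreductase (0.24). Serpinb6d, a serpin (0.26), and Abhd10, a mitochondrial hydrolase (0.27), followed. All 5 were lower in every Cbl-b-/- array, as the measure favors. Dubr and Abhd10 are annotated to chromosome 16 in RefSeq, as are Cblb (promoter window from chr16:52031299) and Crkl (from chr16:17451735, far from Cblb). Crkl did not share the profile. The part of chromosomal position in these profiles was not tested.

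**Figure D4:**
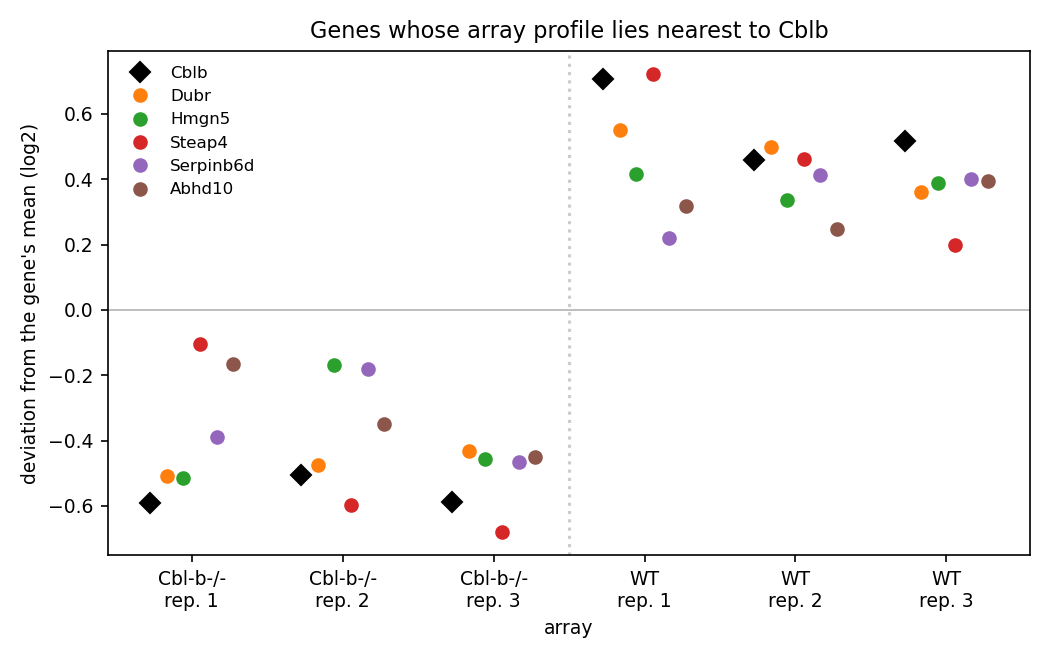
Deviation from the gene's own mean over 6 arrays (vertical axis, log2 units) of Cblb (black diamonds) and the 5 genes nearest to it (coloured circles) in each Cbl-b-/- (left) and WT (right) array on the horizontal axis. All 6 genes lie below 0 in the Cbl-b-/- arrays and above 0 in the WT arrays, with Dubr closest to Cblb.

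Over 8 keratinocyte markers, taken for the labelled tissue, the array means were 11.26 in Cbl-b-/- and 10.93 to 11.30 in WT arrays. Over the 12 skeletal muscle markers they were 9.36 to 10.59 in Cbl-b-/- and 9.89 to 10.75 in WT arrays. These levels come from different probes and are not ranked. Array medians were 6.30 to 6.34 and correlations between arrays across rows 0.980 to 0.993. WT replicate 3 stood apart in 21 hair follicle markers, with a mean of 9.02, against 5.67 to 6.90 in the Cbl-b-/- arrays and 5.46 and 5.62 in the other WT arrays. It was also the lowest array in 6 blood endothelial markers (7.10, against 7.65 to 7.72 in Cbl-b-/- and 7.68 and 7.70 in the other WT arrays) and in the keratinocyte markers (10.93). Without it Cblb was called (-1.14), the other 9 genes were not, and the difference of Pik3r1 was -0.37. The levels of the 10 genes were not tested against these markers.

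**Figure D5:**
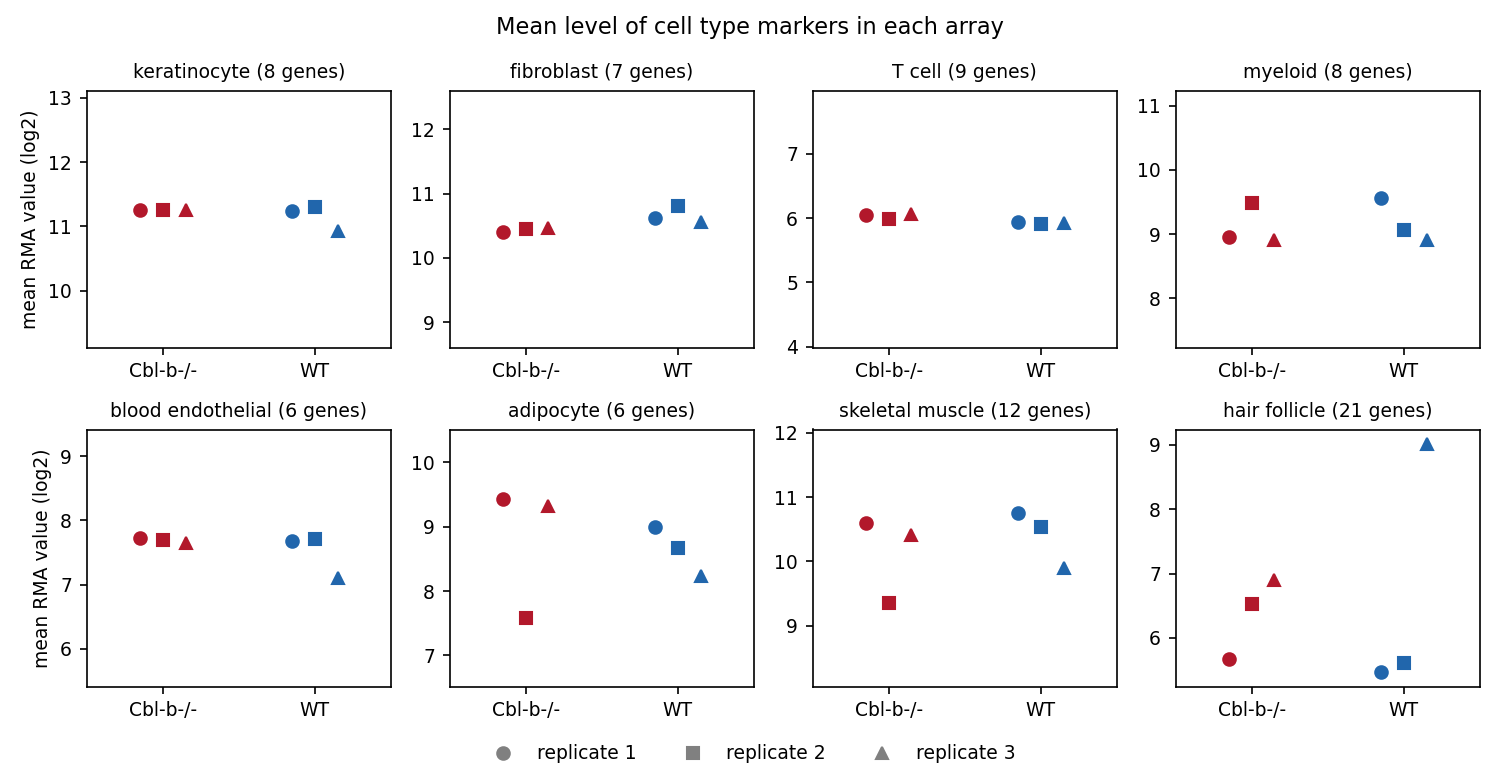
Mean RMA value (vertical axis, log2 scale, all panels of equal height) of 8 lists of cell type markers in each Cbl-b-/- (left, red) and WT (right, blue) array, with symbols for the replicate number. Cbl-b-/- replicate 2 is low in adipocyte (7.59) and skeletal muscle (9.36) markers, and WT replicate 3 is high in hair follicle markers (9.02).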

How the data were processed

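Arrays of 3 Cbl-b-/- and 3 WT skin samples were analysed, grouped by the genotype label. The deposited values are log2 signals that the authors made by RMA in Partek (version 6.5 in the submitters' processing notes, while the methods name another), which corrects background, gives all arrays 1 distribution of values by quantiles and summarizes probes by median polish. Because of the quantile step, a shift of all genes would not show. The genome build is not given in the sources used here. Gene symbols came from the platform's annotation: 21789 rows had 1 symbol, 1621 several and 12146 none. A gene with several rows would have taken that with the highest mean.

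Genotypes were compared on the values as deposited with limma 3.58.1 in R 4.3.3, fitted to all 35556 rows, and p-values were adjusted over all rows (Benjamini-Hochberg). The methods' test is the one-way analysis of variance per row. The fit was tested on simulated data. The 10 genes and all lists were chosen with earlier results of these data known. The rule for named genes took the 10 genes, called genes or the smallest p of each list, and the 5 profiles nearest to Cblb. Spry2, Grap, Sla, Ret, Egfr, Pdgfra, Rnf128, Rc3h1 and the T cell markers named singly lie outside it and were chosen after their values were seen. The methods call the replicates biological. Alternatives were the methods' test, cyclic loess, median centring, a filter on low rows, an intensity trend, array weights, a replicate block and leaving out each array. Promoter windows are from RefSeq (GRCm38.p6).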

Additional observations from a re-analysis of the deposited data

How the results depend on the processing

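Cblb was lower and called under all 13 alternatives, and the other 9 genes were called under none. The number of the 10 genes at an unadjusted p under 0.05 was 1, and 2 with the methods' test (Cblb and Grb2). Of all rows, 6.98% passed in the methods' test, and 4.6% to 10.3% over the alternatives. At an adjusted p under 0.05 the number was 0, and 1 (Cblb) with low rows filtered out (adjusted p = 0.0415 from limma) or with array weights (adjusted p = 0.0306 from limma). Over all alternatives the adjusted p of Cblb ran from 0.0306 to 0.427. The genes without overlap numbered 3, 2 after cyclic loess (without Grb2), and 3 to 5 when each array was left out. Over all rows 13.5% did not overlap with all arrays and 20.5% to 28.0% with 1 left out, since fewer arrays can overlap. Nedd4 turned sign after cyclic loess (-0.015) and median centring (-0.0049) and ran from -0.079 to 0.13 when arrays were left out. Sh3kbp1 turned with array weights (-0.0025) and ran from -0.066 to 0.14. The cause was not tested. With the replicate block the log2 difference of Cblb was -1.12 (adjusted p = 0.427 from limma), and no call among the 10 genes changed. Same-numbered arrays correlated at 0.23, 0.092 and 0.25 in their deviations, and the second lies under the minimum of 0.1 set for pairs, so the numbers were not taken as pairs. Of the 6 arrays, 5 correlated best with their own number, all but WT replicate 2. These are not separate matches, since each correlation counts for both of its arrays. The count comes from the data and not from the design, and its rate by chance was not determined. Using a second row per gene was not run, since each gene had 1. With 3 arrays per group, differences smaller than the intervals given above could not be resolved. Detection calls were not used here, so no level is given as above background. Over all rows, the number called was 434, against 267 with the methods' test, 176 of 17778 with low rows filtered out and 790 without Cbl-b-/- replicate 2, and the number at an adjusted p under 0.05 was 1, against 2 with the methods' test or without WT replicate 3, 9 with low rows filtered out and 12 with array weights.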
